A study of Mus musculus with 6 samples.

Results

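The microRNAs miR-221-3p and miR-222-3p were followed in white adipose tissue (WAT) from ApoE-deficient mice. They were taken by their miRBase mature accessions, MIMAT0000669 and MIMAT0000670, and are 2 of the 707 mature miRNAs in the count table. All mice were male and lacked apolipoprotein E, the control mice included, so there was no group with intact ApoE. The CIH group, 3 libraries, came from mice under chronic intermittent hypoxia for 8 weeks, in which the inspired oxygen was lowered and restored in repeated cycles as a model of obstructive sleep apnea. The control group was 3 libraries from mice outside that treatment. The age and number of the mice, the fat depot, and whether tissue of several mice was pooled are not stated in the sources used here.

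As background, a mature miRNA guides a silencing complex to messenger RNAs that pair with its seed, bases 2 to 8 from the 5′ end, and lowers the output of those messages. miR-221 and miR-222 are processed from neighbouring hairpins on the X chromosome and are known for repressing the cell cycle inhibitor p27 and the receptor Kit. They are well expressed in endothelium and vascular smooth muscle, decline as preadipocytes become fat cells, and have been described as higher in fat of obese mice.

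The sequences are shown because they define what a read of either miRNA is and why both are read as 1 seed family. Both mature sequences were taken from RefSeq on GRCm38.p6, where both names were found, and are written 5′ to 3′ with the seed in capitals.
miR-221-3p: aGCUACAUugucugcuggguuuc
miR-222-3p: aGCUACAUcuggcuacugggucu
Each has 23 bases. The first 8 are identical, and the first difference is U9C, counted from 1 at the 5′ end, with the miR-221-3p base first. In all, 11 of the 23 positions are the same and 12 differ, so that a full-length read belongs to only one of them. Among 1679 mature mouse miRNAs in the RefSeq table, 3 carry this seed, the pair and mmu-miR-1928. No other miRNA of the count table had the same counts as either of the pair in all libraries.

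The hairpins are shown with the mature 3p arm in capitals.
Mir221: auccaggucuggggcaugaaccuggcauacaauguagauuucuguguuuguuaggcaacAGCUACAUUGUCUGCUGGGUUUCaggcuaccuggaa
Mir222: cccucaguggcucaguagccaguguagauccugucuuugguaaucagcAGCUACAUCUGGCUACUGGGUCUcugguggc
The Mir221 hairpin has 95 bases and lies at chrX:19146294-19146388, and its 3p arm at chrX:19146307-19146329. The Mir222 hairpin has 79 bases and lies at chrX:19146893-19146971, with its 3p arm at chrX:19146901-19146923. Both are on the minus strand of GRCm38, with 504 bases between them. GENCODE release M21 places no other gene over this stretch and no further miRNA gene within 10 kb. The nearest gene upstream in the direction of transcription is the noncoding Gm14636, on the same strand, 10009 bases beyond Mir222.

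The shared seed pairs with the 7 bases ATGTAGC in a message. This run was searched on the transcript strand in the longest annotated 3′ untranslated region of the 20998 protein-coding genes that have one, and 1979 of them (9.42%) held it. Of 5 genes named as targets of the pair from general knowledge, all 5 held it. Their choice as targets made this likely, so it is not a test against the share of all genes. Kit, the receptor for stem cell factor, had 2 matches, Ets1, a transcription factor of endothelium, had 2, and Cdkn1b, which encodes p27, Cdkn1c, another cell cycle inhibitor, and Timp3, an inhibitor of metalloproteinases, had 1 each. The match in Cdkn1b and both in Kit are shown with the 15 bases before it and the base after it, and the 7 bases in capitals.
Cdkn1b: ctctaaaagcattggATGTAGCa
Kit, first match: aatgatgggagatatATGTAGCa
Kit, second match: tttgtaaatattgaaATGTAGCa
On GRCm38 the 7 bases lie at chr6:134924431-134924437 for Cdkn1b, and at chr5:75654992-75654998 and chr5:75656523-75656529 for Kit. All are on the plus strand. These are matches of letters, and no messenger RNA was measured in these samples.

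The 6 libraries held between 636963 and 4783768 counts, and between 487 and 649 of the 707 miRNAs had at least 1 count. Levels are given as CPM, counts brought to the same library size, after TMM normalization, which adjusts each total for its composition. The factors ran from 0.575 in control 1 to 1.45 in CIH 3. Control 3 stood apart from the other control libraries and lay with the CIH libraries, so control 1 and control 2 differed from all the rest. Across the 633 miRNAs tested, log2 levels of control 3 correlated with the CIH libraries at 0.958 to 0.974 and with control 1 and control 2 at 0.595 and 0.661. The correlation of control 1 with control 2 was 0.831, and that of either with a CIH library was 0.621 to 0.712. Inside the CIH group the values were 0.952 to 0.972. For example, MIMAT0004846 was at 10.2 and 5.79 CPM in control 1 and control 2, against 54451 CPM in control 3 and 39393 CPM in CIH 3. Which libraries are the unusual ones was not tested. The points behind these correlations are miRNAs, not replicates. Values without control 3 are therefore given beside the tests. The counts do not pair accessions with names, so the markers of adipocytes and of other cell types are not analysed here, and their part in the levels was not tested.

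Neither miR-221-3p nor miR-222-3p differed between the CIH and control groups by more than the spread between libraries. In the controls miR-221-3p averaged 241.6 ± 111.1 CPM, against 177.2 ± 6.17 CPM under CIH (SD, n = 3 each). Likewise, miR-222-3p averaged 109.8 ± 36.0 CPM without CIH and 78.6 ± 10.6 CPM with it (SD, n = 3 each). Both means were lower under CIH, and with TMM factors control 2 was the library with the highest level of each. With library totals as the scaling, CIH 3 was the highest for miR-222-3p, at 130.3 CPM against 126.5 CPM in control 2. In tissue samples, fewer cells of a type and less RNA per cell cannot be told apart.

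Control libraries 1, 2 and 3 held 134, 1532 and 205 counts of miR-221-3p, and CIH libraries 1, 2 and 3 held 220, 170 and 158. As a level, this was 170.5, 369.6 and 184.8 CPM for the controls, in the same order, and 176.7, 183.7 and 171.4 CPM for the CIH samples. Control 2 was 2.08-fold above the mean of the other 5 libraries, and those 5 lay between 170.5 and 184.8 CPM. Both values depended on the scaling. With library totals control 2 was 1.64-fold above the mean of the other 5, which lay between 98.1 and 258.6 CPM, and with upper-quartile factors it was 3.39-fold above them. The interval that counting error alone allows in control 2 ran from 351.3 to 388.6 CPM (95%, exact Poisson), and the highest upper limit among the other libraries was 213.5 CPM. Control 2 was also the most deeply sequenced library. It was the highest of the 6 libraries for 163 of the 633 miRNAs tested (25.8%).

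For miR-222-3p the controls held 86, 605 and 82 counts, and the CIH samples 86, 71 and 83. Its level was 109.4, 146.0 and 73.9 CPM for the controls and 69.1, 76.7 and 90.0 CPM for the CIH samples. On this scale control 2 was again the highest, and control 1 came next, while with library totals control 1 had 63.0 CPM and only CIH 1, at 54.5 CPM, was lower. On the TMM scale control 3 lay inside the range of the CIH libraries, so the groups overlapped, as they did for miR-221-3p. Counting error was 10.8% to 11.9% of the level in the 5 shallower readings of miR-222-3p and 4.07% in control 2.

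**Figure D1:**
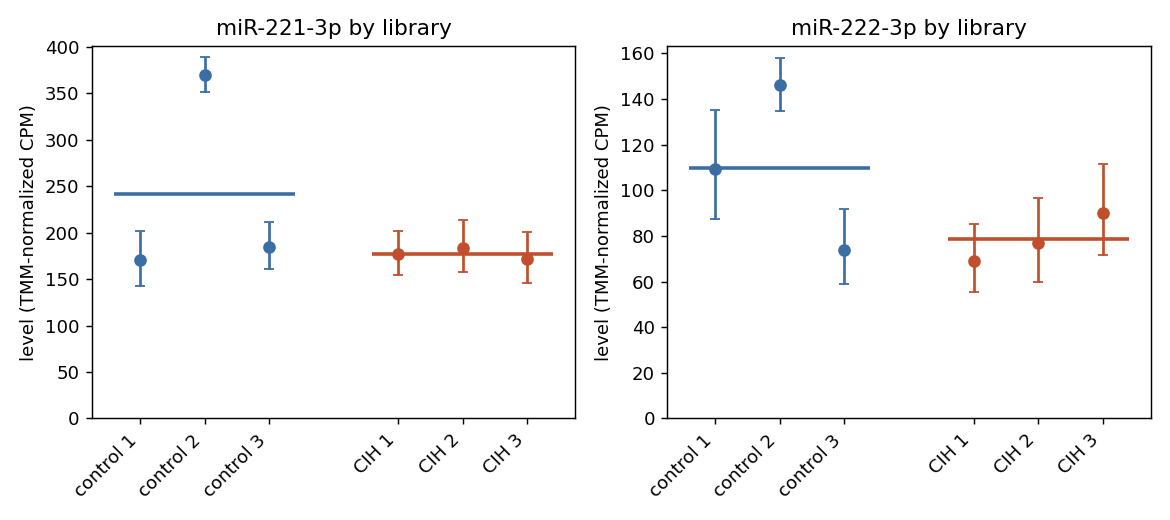
Level of miR-221-3p (left) and miR-222-3p (right) in each library, in TMM-normalized CPM. Points are libraries, vertical bars are 95% exact Poisson intervals that cover counting error only, and horizontal lines are group means. For miR-221-3p, control 2 stands at 369.6 CPM and the other 5 libraries lie between 170.5 and 184.8 CPM on this scale.

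Whether CIH changed the pair was tested with edgeR's quasi-likelihood test on the 633 miRNAs whose counts summed to 10 or more. The log2 fold change of miR-221-3p, CIH over control, was -0.45 (standard error 0.57, 95% interval -1.81 to 0.91, adjusted p = 0.882). That of miR-222-3p was -0.48 (standard error 0.53, 95% interval -1.75 to 0.79, adjusted p = 0.882, same test). The intervals reach from a level 3.50 times lower to one 1.88 times higher for miR-221-3p, and from 3.37 times lower to 1.73 times higher for miR-222-3p. Over all miRNAs, 0 (0%) passed an adjusted p-value of 0.05 with this test, as with DESeq2 and limma voom, and 16 (2.53%) an unadjusted one, and the pair was in neither count. By unadjusted p-value, miR-222-3p (0.396) ranked 277 and miR-221-3p (0.458) ranked 324 of 633. Groups that did not overlap were found for 51 miRNAs (8.06%), and for neither of the pair.

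The 2 differences were close to each other and sat within the bulk of all miRNAs. Of the 633 fold changes, 214 were lower than that of miR-221-3p and 208 lower than that of miR-222-3p, and the median over all was 0.07. The standard errors of the pair were among the smaller ones. Only 35 miRNAs had a smaller standard error than miR-221-3p and 13 a smaller one than miR-222-3p, against a median of 1.04 over all tested. Of the 633, 204 averaged 100 CPM or more, and standard errors were not compared among miRNAs of like level.

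**Figure D2:**
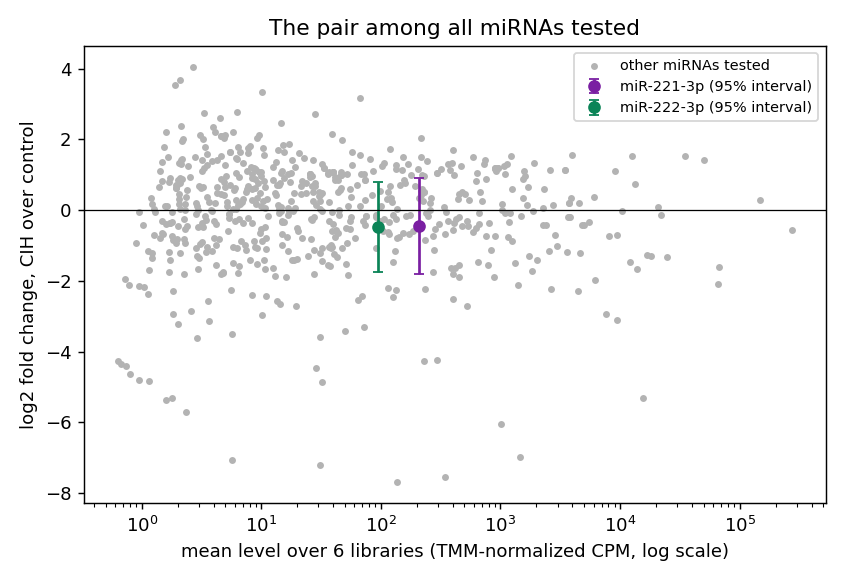
Log2 fold change, CIH over control, against the mean TMM-normalized CPM over 6 libraries (log scale) for the 633 miRNAs tested. Grey points are other miRNAs, and the 2 coloured points with 95% intervals are miR-221-3p at -0.45 and miR-222-3p at -0.48, both of whose intervals span 0.

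Single libraries moved these values without bringing either past the threshold. Without control 2, the log2 fold change of miR-221-3p was 0.07 and that of miR-222-3p was -0.14, with adjusted p-values of 0.968 for both from edgeR's quasi-likelihood test. The sign for miR-221-3p therefore rested on control 2. Without control 3, the values were -0.63 and -0.72, with adjusted p-values of 0.386 and 0.247 from the same test. In that fit 118 of 614 miRNAs (19.2%) passed an adjusted p-value of 0.05, and neither of the pair was among them. Control 3 was singled out by its likeness to the CIH libraries in these same data. Leaving it out therefore made more calls likely, and their number is not a test of CIH.

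The ratio of the pair needs no scaling factor, because both counts come from the same library. Per count of miR-222-3p there were 1.56, 2.53 and 2.50 counts of miR-221-3p in control libraries 1, 2 and 3, and 2.56, 2.39 and 1.90 in CIH libraries 1, 2 and 3. miR-221-3p was the more counted of the pair in all 6 libraries, and in each the lower limit of the 95% interval (exact Clopper-Pearson, counting error only) was above 1, the lowest being 1.18 in control 1. Since both have 23 bases, the ratio is the same per base. Adapter ligation depends on the sequence of a small RNA, so a ratio of counts need not be a ratio of molecules.

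The ratio did not differ between the groups beyond the spread between libraries. The mean log2 ratio was 1.10 ± 0.40 for control and 1.18 ± 0.22 for CIH libraries (SD, n = 3 each). The difference, CIH minus control, was 0.08 (two-sided exact permutation test, p = 0.8, where 3 libraries against 3 cannot give a p under 0.1). As a share of the pair's counts, miR-221-3p took 60.9% in control 1 (95% exact interval 54.1% to 67.4%) and 71.7% in control 2 (69.7% to 73.6%). These intervals do not overlap, and all other pairs of libraries have overlapping intervals. Within the control group, control 1 thus had relatively more miR-222-3p than control 2.

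**Figure D3:**
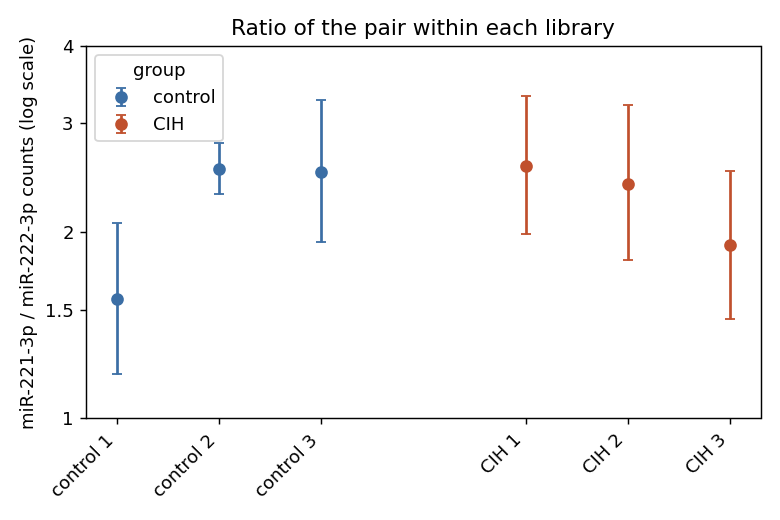
Counts of miR-221-3p divided by counts of miR-222-3p in each library (log scale), with 95% exact binomial intervals that cover counting error only. All 6 ratios lie above 1, from 1.56 in control 1 to 2.56 in CIH 1, and the groups overlap.

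The pair was of moderate abundance in this tissue. Together the 2 miRNAs made up between 0.0161% of the counts, in control 1, and 0.0447%, in control 2. From the most counted downward, miR-221-3p ranked 135, 98 and 146 in control libraries 1, 2 and 3 and 156, 153 and 157 in CIH libraries 1, 2 and 3. The ranks of miR-222-3p were 149, 134 and 203 among the controls and 219, 202 and 196 among the CIH samples. Both miRNAs ranked higher in control 1 and control 2 than in the other 4 libraries. Fewer miRNAs had a count there, 487 in control 1 and 552 in control 2, against 631 to 649 in the others. A rank is not a level, as control 1 had the lowest TMM level of miR-221-3p, 170.5 CPM. Control 3, with ranks of 146 and 203, was nearer to the CIH libraries than to the other controls for miR-222-3p, and stood between them for miR-221-3p.

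With TMM factors, the libraries of the CIH group lay closer together than the controls for both miRNAs. The coefficient of variation of miR-221-3p was 46.0% among controls and 3.48% under CIH, and that of miR-222-3p was 32.8% and 13.5%. The value of 3.48% is smaller than the counting error of any single CIH library for miR-221-3p, which was 6.74% to 7.96%. It also depended on the scaling. With library totals the coefficient of variation of miR-221-3p in the CIH group was 28.3%, and with RLE factors it was 8.86%. For miR-222-3p library totals turned the order of the groups, with 32.9% among controls and 40.5% under CIH, and RLE factors gave 21.4% and 20.9%. With TMM factors again, of the 395 miRNAs that averaged 10 CPM or more, 345 (87.3%) also had the larger coefficient of variation among controls. The medians over these 395 were 84.2% for control and 27.6% for CIH, and both members of the pair were below the median in each group. With library totals miR-222-3p was above the median under CIH, which was then 35.6%. In the CIH group, 9 of the 395 had a smaller value than miR-221-3p and 74 a smaller one than miR-222-3p. Among controls, the coefficients of variation include the difference of control 3 from control 1 and control 2 described above. Whether CIH changes the spread was not tested.

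**Figure D4:**
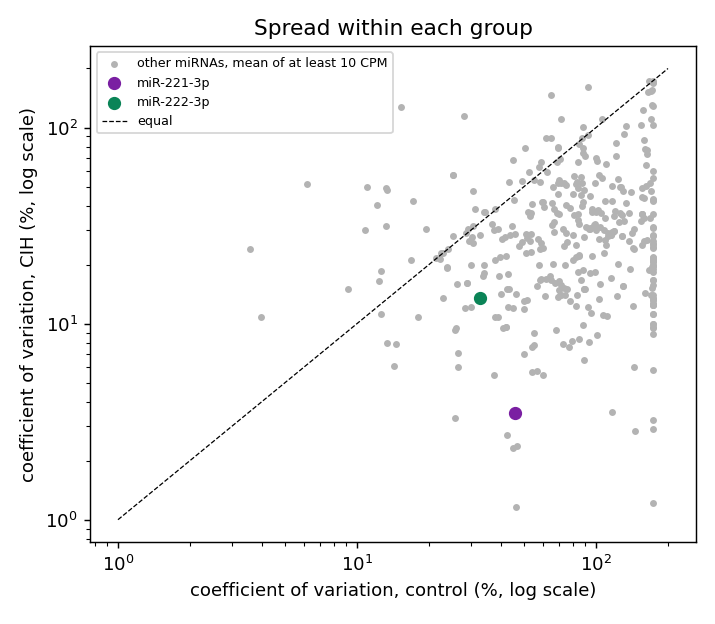
Coefficient of variation over 3 libraries in the CIH group against that in the control group (both in percent, log scales) for the 395 miRNAs that averaged 10 TMM-normalized CPM or more. The coloured points are miR-221-3p (46.0% and 3.48%) and miR-222-3p (32.8% and 13.5%), and both lie below the dashed line of equal spread. With library totals, which are not plotted, miR-222-3p would lie above it (32.9% and 40.5%).

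How alike the 2 profiles were was measured as the root mean square distance between log2 levels over the 6 libraries, each centred on its own mean. It was not divided by the spread, so 2 profiles with little spread lie close even where their libraries are ordered differently. With TMM factors, control 1 was the lowest library for miR-221-3p (170.5 CPM) and next to the highest for miR-222-3p (109.4 CPM). The distance between miR-221-3p and miR-222-3p was 0.26 on the log2 scale. For comparison, the median distance from miR-221-3p to the 203 other miRNAs that averaged 100 CPM or more was 0.98, and from miR-222-3p to 204 such miRNAs it was 1.02. By closeness, miR-222-3p took place 6 as seen from miR-221-3p, and miR-221-3p took place 7 as seen from miR-222-3p. As miR-222-3p itself averaged 94.2 CPM, it was placed against the set of 203 without belonging to it. The closest profile to miR-221-3p was that of MIMAT0000546, at 0.20, and the closest to miR-222-3p was that of MIMAT0000522, at 0.21. Levels of MIMAT0000546 were 1398, 4255 and 2165 CPM for the controls and 1877, 2259 and 1663 CPM for the CIH samples, with control 2 again the highest. MIMAT0000522 was at 1816, 1842 and 1022 CPM for the controls and at 1071, 1505 and 1577 CPM for the CIH samples, with control 1 and control 2 the highest and control 3 the lowest.

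The scaling moved the size of both differences, and the median of all miRNAs with them. Upper-quartile factors gave the lowest log2 fold changes, -1.14 for miR-221-3p and -1.18 for miR-222-3p, with a median of all miRNAs of -0.52. Library totals gave -0.13 and -0.06, with a median of 0.33. Of the 633 fold changes, 33.5% were lower than that of miR-221-3p with upper-quartile factors and 33.6% with library totals.

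**Figure D5:**
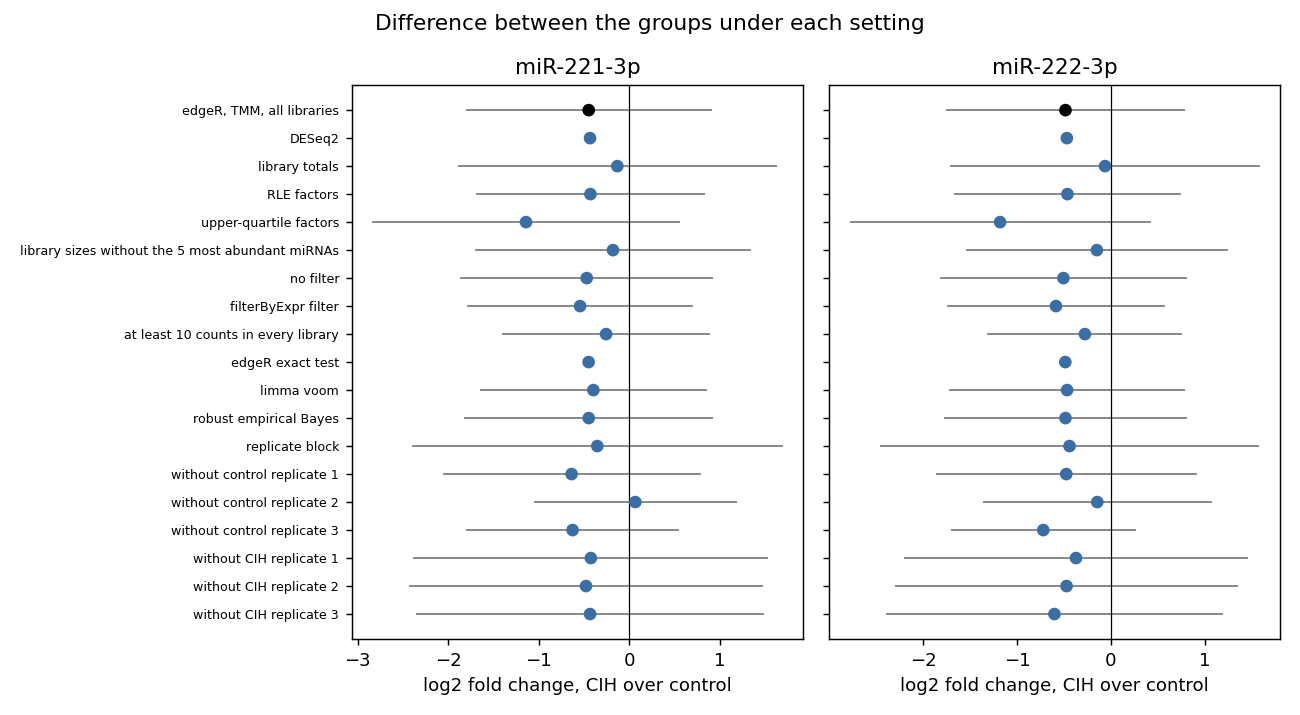
Log2 fold change, CIH over control, of miR-221-3p (left) and miR-222-3p (right) in the original fit (black) and under each alternative (blue), with 95% intervals where the method gives one. The values run from -1.14 to 0.07 for miR-221-3p and from -1.18 to -0.06 for miR-222-3p, and every interval spans 0.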

How the data were processed

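Small RNA libraries of WAT were compared between 3 control and 3 CIH samples. The authors deposited raw read counts per mature miRNA, with no normalization. The trimming, aligner, counting rule for reads that match several miRNAs, and miRNA database release are not given in the sources used here. They decide how reads of similar miRNAs are shared. The labels gave each library its group. No 2 libraries agreed within sampling noise (chi-square per degree of freedom of 120.1 or more), so each counted as 1 replicate. Nothing in the labels says that the samples were separate animals beyond their replicate numbers, so p-values measure the spread between these samples. edgeR, DESeq2 and limma estimate the spread of each miRNA partly from the other miRNAs tested. Their standard errors and p-values therefore do not rest on the levels of that miRNA alone.

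The 633 miRNAs with at least 10 counts in all were fitted with edgeR 4.0.16 (TMM, quasi-likelihood test, no term besides the group, Benjamini-Hochberg adjustment) in R 4.3.3. Intervals of fold changes came from the fold change, its F statistic and the degrees of freedom. Log2 levels for distances used a prior count of 2. Other values used Python 3.11.15 with scipy 1.17.1. The fit was also run on simulated data with large changes, as a check of the code. This does not measure how small a change it could find in these libraries. Alternatives were DESeq2 1.42.0, limma 3.58.1 with voom, edgeR's exact test, robust empirical Bayes, 4 other scalings, 3 other filters, the replicate number as a block, and each library left out. Hairpins, mature sequences and neighbouring genes came from RefSeq on GRCm38.p6 and GENCODE M21.

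The pair, the lists and the tests were chosen with earlier results of these data known. The rule for named miRNAs took the pair, its other arms, the 5 closest profiles to each and lists of markers. Because the count table does not pair accessions with names, the other arms and the lists are not analysed here. Of the closest profiles, only the first to each is named, by accession. The miRNA given as an example of the difference between control libraries, MIMAT0004846, was named outside this rule, with its levels known.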

Additional observations from a re-analysis of the deposited data

How the results depend on the processing

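In 18 alternatives, miR-222-3p had a lower level under CIH in all 18 and miR-221-3p in 17, and 0 of them gave an adjusted p-value under 0.05 for either, by edgeR, DESeq2 or limma. The unadjusted p-value was also above 0.05 for both in the original fit (0.458 and 0.396). Over the alternatives, adjusted p-values ran from 0.386 to 0.980 for miR-221-3p and from 0.247 to 0.995 for miR-222-3p. When single libraries were left out, the log2 fold change ran from -0.64 to 0.07 for miR-221-3p, where it was above 0 without control 2 (0.067), and from -0.72 to -0.14 for miR-222-3p. Without control 2 the control group held 2 libraries. The ratio of the pair differed by -0.15 to 0.21 on the log2 scale when single libraries were left out, below 0 without control 1 (-0.15) and without CIH 1 (-0.01). A pseudocount of 0.5 gave 0.08.

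Control and CIH samples share replicate numbers in the labels. The labels do not state a pairing, and none was taken. Libraries with the same number deviated from their groups with correlations of 0.353, -0.116 and 0.0195 for numbers 1, 2 and 3. Differently numbered libraries were not compared in this way, so these values cannot decide whether samples were paired. With the replicate block, the log2 fold changes were -0.35 and -0.44 for miR-221-3p and miR-222-3p. With same-numbered libraries paired, the difference in log2 ratio was 0.08 (exact sign-flip permutation, p = 1). The 8 possible sign flips cannot give a p under 0.25.

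The number of miRNAs with an unadjusted p-value under 0.05 was 16 originally, 39 with upper-quartile factors, 75 with limma voom, 3 with the block and 225 without control 3. The cause was not tested. Against the miRNAs that averaged 1000 CPM or more, miR-222-3p took place 3 by closeness to miR-221-3p, in place of 6. Seen from miR-222-3p, miR-221-3p took place 2 in place of 7. miR-221-3p and miR-222-3p averaged 209 and 94.2 CPM, so neither belongs to this set. It held 78 miRNAs, in place of 203 and 204, so fewer could lie closer. Library totals can move these distances only through the prior count. Scaling without the miRNAs of other tissues, and the list counts, were not run, because accessions are not paired with names. The other scalings of the coefficients of variation were chosen after seeing the data. Counts of 71 to 86 in 5 libraries limit miR-222-3p to an error of 10.8% to 11.9% from counting alone.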
